A study of Mus musculus with 30 samples.

Results

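The SoxC genes Sox4, Sox11 and Sox12 and the acyltransferase gene Mboat2 were read from every probe set that the array's annotation assigns to them, 19 of 45101 probe sets and 4 of 18194 genes. Sox4 had 8 probe sets, Sox11 had 6, Sox12 had 3 and Mboat2 had 2. The genes were chosen by measured values: single probe sets of Sox11 and Mboat2 had higher signals in Olig null than in heterozygous E18.5 tissue. Differences between null and heterozygous tissue are therefore given as a description, with no test. Sox4 and Sox12 were added as the other members of the Sox11 family.

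RNA was measured on 30 Affymetrix mouse expression arrays, on which a probe set is a group of short probes designed on one transcript sequence. The 22 neurosphere arrays came from ganglionic eminences of E14.5 embryos, grown with EGF and bFGF. All of these cultures were Ink4a/Arf-/-, all carried the mutant receptor hEGFRvIII from a retrovirus given at passage 1, and all were selected with puromycin. Of the untransduced cultures, meaning those with no further virus, 3 were Olig1/2+/+, 3 were Olig1/2+/- and 6 were Olig1/2-/-. Retrovirus for GFP or for Olig2 was given at passage 3 with blasticidin selection, on 2 heterozygous lines (11 and 15) and 3 null lines (12, 13 and 14), with 1 array for each line and virus. RNA was taken between passages 4 and 15, and the passage of each array is not stated. The 8 tissue arrays hold RNA of the forebrain and the cord of 4 embryos at E18.5, 2 of them labelled Olig2 -/- and 2 labelled Olig2 +/-. The series design calls the tissue genotype Olig1/2, and null and heterozygous are used here. The background was mixed Swiss and C57BL/6J in all groups. Tissue arrays carry no EGFRvIII label, so tissue and cultures differ in age, growth, Ink4a/Arf and EGFRvIII at once.

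The SoxC proteins are related transcription factors with a DNA-binding HMG box, encoded by genes without introns, and act in progenitors that leave the cell cycle and in young neurons. Sox4 and Sox11 are known to activate neuronal genes such as Tubb3 and Dcx. Mboat2 encodes a membrane-bound enzyme that adds fatty acids to lysophospholipids. Olig1 and Olig2 are basic helix-loop-helix factors, a family that binds the E-box CANNTG.

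Mboat2 and Sox11 lie on the same chromosome, 12. Among genes with a probe set tested in tissue, 5 lie between them in the RefSeq order. Genes without such a probe set were not counted. Sox4 lies on chromosome 13 and Sox12 on chromosome 2. The deposited values name no genome build. The 250 bases before the RefSeq start of 3 of the genes (assembly GRCm38.p6) are shown because Olig2 was deleted in these cells and added by virus, and because Sox11, Sox4 and Mboat2 signals differed between the virus groups. E-boxes are in capitals.
Sox11, chr12:27342719-27342968, minus strand: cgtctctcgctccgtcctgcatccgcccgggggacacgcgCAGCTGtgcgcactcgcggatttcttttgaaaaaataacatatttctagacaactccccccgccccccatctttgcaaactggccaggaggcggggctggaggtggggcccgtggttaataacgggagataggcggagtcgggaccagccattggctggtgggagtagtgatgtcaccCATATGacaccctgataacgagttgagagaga
Sox4, chr13:28953700-28953949, minus strand: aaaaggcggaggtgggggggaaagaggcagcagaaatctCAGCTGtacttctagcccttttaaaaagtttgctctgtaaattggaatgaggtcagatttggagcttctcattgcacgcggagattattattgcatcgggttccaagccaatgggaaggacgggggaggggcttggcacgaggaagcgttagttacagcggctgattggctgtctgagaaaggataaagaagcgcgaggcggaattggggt
Mboat2, chr12:24831349-24831598, plus strand: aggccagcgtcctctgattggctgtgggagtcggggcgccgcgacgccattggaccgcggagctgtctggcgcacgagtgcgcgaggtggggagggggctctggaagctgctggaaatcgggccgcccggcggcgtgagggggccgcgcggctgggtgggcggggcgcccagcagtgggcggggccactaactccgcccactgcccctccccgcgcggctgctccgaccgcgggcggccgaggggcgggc
The Sox11 window holds a CAGCTG that begins 210 bases before the start and a CATATG that begins 32 bases before it. The Sox4 window holds a CAGCTG that begins 211 bases before the start. The Sox12 window holds a CAAATG at 192 bases, and the Mboat2 window holds no E-box. An E-box reads as one on both strands. Of 32851 mouse promoter windows of this length 66.2% hold an E-box, 13% one with the bases of the first Sox11 match and 3.46% one with the bases of the second. A match describes these letters and not a bound site.

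Values are MAS5 signals, an intensity without a unit. Median signals of the arrays ran from 128.9 to 217.4. Olig1 signals were 7064 to 9509 in null cultures and 20361 to 30893 in heterozygous and wild-type cultures, and Olig2 signals were 6177 to 11577 and 11500 to 18048, which overlapped. In tissue Olig2 signals were 108.9 to 178.7 in null and 269.2 to 519.3 in heterozygous forebrain, and 23.8 to 58.5 in null and 335.1 to 736.0 in heterozygous spinal cord. Olig1 signals overlapped in forebrain, at 1685.7 to 1889.1 in null and 1786.6 to 2187.4 in heterozygous arrays. In cord they were 1878 to 2007 and 3901.1 to 4068.1. Arrays labelled Olig2 could not be checked this way: the single Olig2 probe set read 4450 to 10011 in null lines with Olig2 and 8279 to 10275 with GFP, and 10464 to 11641 and 13286 to 14757 in heterozygous lines. It was thus no higher on arrays labelled Olig2. The position of its probes, inside or outside the deleted part and the viral insert, is not known here, and every direction drawn from these arrays rests on their labels. The array of null line 13 with GFP stood apart. It had the lowest median signal of the 30, an A260/A280 ratio of 2.83, and the highest log2 ratio of the 3' to the 5' Gapdh control probe set, 0.432, where the other 21 neurosphere arrays lay between -0.326 and -0.04. Where a difference or call below turns on this array, it is also given without it. Whether the arrays of a group came from separate embryos is not stated for the cultures, so p-values measure the spread between lines. In bulk RNA, fewer cells of a type and less RNA per cell cannot be told apart.

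Sox11 was read by 6 probe sets, all above the array's median signal on all 30 arrays. Probe sets 1429051_s_at and 1453002_at were designed on 1 sequence and 1429372_at and 1453125_at on another, so they are not independent readings. The suffix _s_at marks probes shared by several transcripts, and _a_at marks probes for alternative transcripts of a gene. Where each set lies in the gene is not used here.

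**Figure D1:**
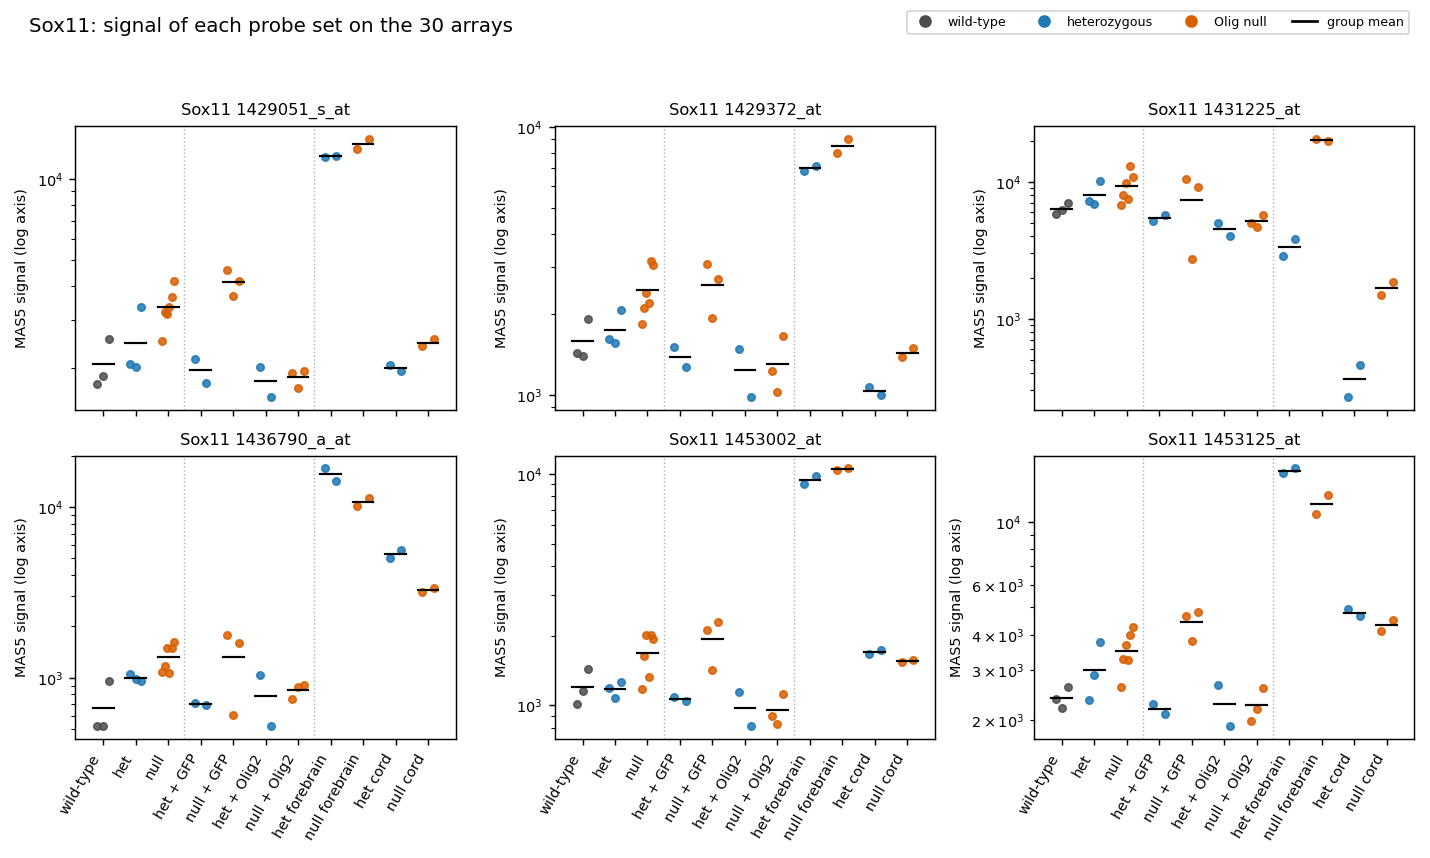
Signal of the 6 Sox11 probe sets (vertical log axes, MAS5 signal) in the 11 groups (horizontal axis); each point is an array, coloured by Olig genotype, and black lines are group means. Probe set 1431225_at had a mean of 363.6 in heterozygous cord and 20291 in null forebrain, while 1436790_a_at was highest in heterozygous forebrain.

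In neurospheres, Sox11 was higher without Olig1/2. For 1436790_a_at the 6 Olig-expressing cultures gave 519.6, 522.1 and 960.5 (wild-type) and 1058, 984.9 and 955.3 (heterozygous). The 6 null cultures ran from 1065 to 1614 with a mean of 1321 ± 240 (SD, n = 6). All 6 null arrays lay above all 6 Olig-expressing arrays. The difference was 0.69 ± 0.16 (log2, SE), with an adjusted p of 0.016 by limma over all 25651 probe sets tested. For 1429051_s_at the Olig-expressing cultures gave 1745, 1865, 2551, 2064, 2016 and 3348, and the null cultures ran from 2514 to 4202. The groups overlapped through heterozygous line 26, and the difference was 0.58 ± 0.15 (adjusted p 0.032). Probe set 1429372_at was also called higher (0.54 ± 0.14, adjusted p 0.035). The other Sox11 sets differed by 0.48 (1453002_at, adjusted p 0.066), 0.38 (1453125_at, 0.10) and 0.37 (1431225_at, 0.19) and were not called.

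Called means an adjusted p under 0.05, and 6.64% of all probe sets tested were called in this comparison (3.54% higher). Of the 16 tested probe sets of the 4 genes, 3 were called higher, all of Sox11, and 0 were called lower. By limma 8 of the 16 had an unadjusted p under 0.05, as did 4947 of all 25651 probe sets. The calls of 1429051_s_at and 1429372_at were close to the threshold. Leaving out any of wild-type line 2 or 3, heterozygous line 11 or 15, or null line 21 or 24 ended both calls (adjusted p 0.066 to 0.085), and so did a fit without a variance trend. The first was also not called without null line 13 or 16 (0.057 and 0.053) and the second without null line 14 (0.055). Conversely, 1453002_at was called without wild-type line 20 or null line 12 or 16 (0.022 to 0.045), and 1453125_at without heterozygous line 26 or null line 12 (0.037 and 0.041). The call of 1436790_a_at held under each of the 21 alternatives run. In the same cultures immature neuron markers summed to 13697 to 18568 in null and 13999 to 19510 in Olig-expressing arrays. Astrocyte markers summed to 16169 to 45296 and 15856 to 20578, and oligodendrocyte lineage markers to 19574 to 24000 and 40097 to 56024. This last list holds Olig1 and Olig2 themselves. Olig1 alone read 7064.2 to 9509.3 and 20360.5 to 30892.9, and Olig2 6177.4 to 11577.1 and 11500.1 to 18048. The part of these markers in the Sox11 values was not tested.

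Against the wild-type cultures alone, 1436790_a_at was higher by 1.01 ± 0.20 (adjusted p 0.0067) and 1429051_s_at by 0.70 ± 0.18 (0.038), 2 of 16 probe sets where 5.47% of all were called (3.04% higher). Without wild-type line 2 neither was called (adjusted p 0.054 and 0.19), and 1429051_s_at was also not called without wild-type line 3 or any of null lines 13, 14, 16, 21 and 24 (0.051 to 0.15). Against the heterozygous cultures the 6 Sox11 differences ran from 0.20 to 0.49. Limma called 0 of 16 probe sets of the 4 genes, where 2.7% of all were called. An unadjusted p under 0.05 was reached by 4 of the 16 and by 3596 of all 25651. Between heterozygous and wild-type cultures 0 of 16 were called by limma, where 0.0078% of all probe sets were called. There 1 of the 16 had an unadjusted p under 0.05, as did 1715 of all 25651. These comparisons share null or heterozygous arrays and are not independent.

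Null lines labelled Olig2 had lower Sox11 than the same lines with GFP. On 1429051_s_at the null lines 12, 13 and 14 gave 4596, 3684 and 4197 with GFP and 1916, 1679 and 1940 with Olig2. Each Olig2 array lay below each GFP array, and the difference was -1.16 ± 0.15 (adjusted p 0.0014). Probe set 1453125_at gave 4672, 3797 and 4802 with GFP and 1992, 2195 and 2605 with Olig2, a difference of -0.96 ± 0.16 (adjusted p 0.0061). Sets 1453002_at (-1.0, adjusted p 0.015) and 1429372_at (-0.97, 0.025) were called lower too. Leaving out Olig2 line 12 or 13 ended both of these calls (0.061 to 0.092), and 1429372_at was also not called without GFP line 12 or 14 (0.063 and 0.067). Over all probe sets 7.66% were called (4.3% higher, 3.36% lower), and of the 16 sets of the 4 genes 4 were called lower, all of Sox11, and 4 higher, of Sox4 and Mboat2. The median of all tested probe sets was 0.11 higher with Olig2.

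Array quality and some cell type marker sums differed between the viruses as well. In null lines the Gapdh 3' to 5' log2 ratio was -0.09, 0.432 and -0.04 with GFP and -0.203, -0.2 and -0.255 with Olig2. That of Actb was 0.279 to 0.607 and 0.182 to 0.278, and median signals were 128.9 to 151.6 and 173.6 to 191.2. None of these overlapped. Immature neuron markers summed to 13804 to 16327 with GFP and 16736 to 19592 with Olig2, and 2 of 12 tested were called higher (Dpysl3 by 1.63 and Mapt by 1.34). The list did not rise as a whole: its median difference was -0.17, beside 0.11 over all probe sets. Neural progenitor markers summed to 65099 to 77916 and 78955 to 85019, with 2 of 8 called higher (Hes5 by 2.27 and Fabp7 by 0.60). Microglial sums were 544 to 658 and 854 to 1054, and meningeal sums 453 to 504 and 576 to 797, with 0 calls by limma. These sums are mostly low signal, and only 2 genes of each list were tested. Of 7 microglial genes, 6 lay under the array's median on all GFP arrays and 5 on all Olig2 arrays. Of 5 meningeal genes, 3 did so with either virus. Astrocyte sums overlapped, and 2 of 9 genes were called higher (S100b by 2.25 and Aqp4 by 2.17). Without null line 13 with GFP the call of Aqp4 was lost (1.83, adjusted p 0.098) and Slc1a3 was called (0.94, 0.040). Oligodendrocyte lineage sums overlapped too, with 0 of 7 called by limma. No marker of these lists was called lower. The part of these values in the Sox11, Sox4 and Mboat2 differences was not tested.

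The remaining Sox11 sets turned on the array of null line 13 with GFP. For 1431225_at the null lines gave 10410, 2717 and 9104 with GFP and 4979, 4710 and 5755 with Olig2. Line 13 with GFP lay below all 3 Olig2 arrays, and the difference was -0.31 ± 0.38 (adjusted p 0.64). Without that array it was -0.92 ± 0.14 (adjusted p 0.0062). For 1436790_a_at the values were 1778, 609.3 and 1589 with GFP and 750.2, 889.1 and 902.5 with Olig2, and the difference moved from -0.50 (adjusted p 0.39) to -0.98 (0.051) without that array. Without it the other 4 Sox11 sets were still called, at -1.07 to -1.25. The part of the Gapdh ratio of that array in these values was not tested. With the untransduced arrays of the same 3 lines as the control, 1429051_s_at was still called (-0.67, adjusted p 0.037), 1431225_at was called (-0.67, adjusted p 0.047), and the other 3 calls were lost: 1453125_at (-0.49, adjusted p 0.14), 1429372_at (-0.72, 0.083) and 1453002_at (-0.73, 0.10).

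**Figure D2:**
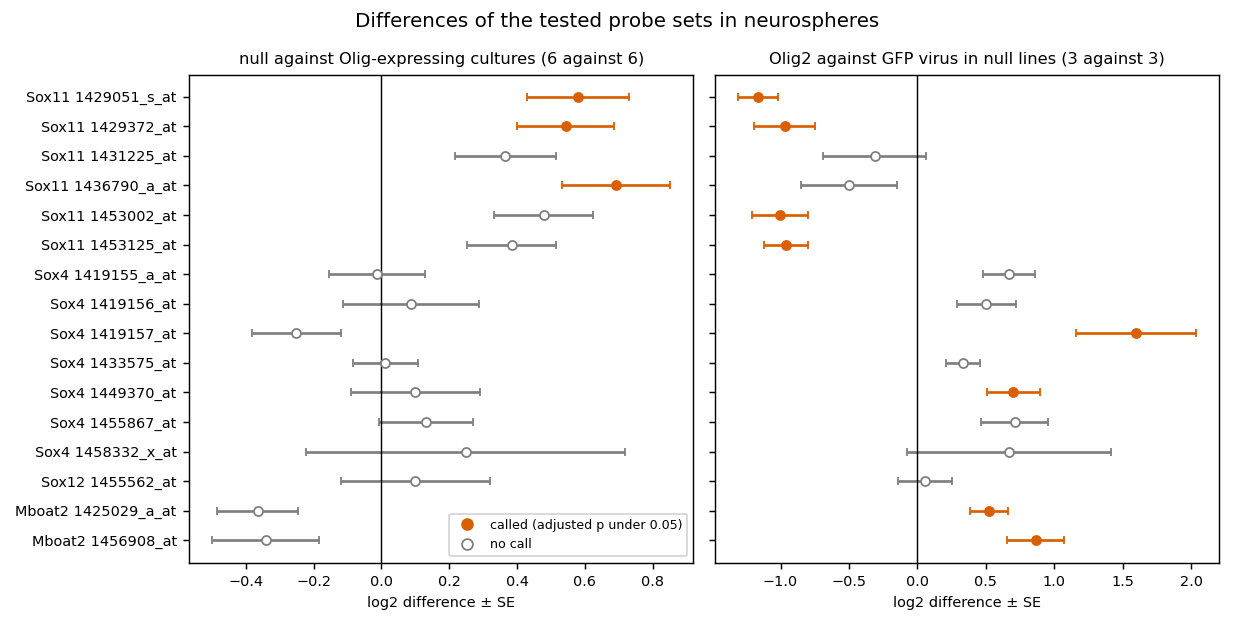
Log2 differences (horizontal axis, point and bar are the estimate ± SE) of the 16 tested probe sets for null against Olig-expressing cultures (left, 6 arrays each) and for Olig2 against GFP in null lines (right, 3 arrays each). Filled points passed an adjusted p of 0.05; Sox11 lies at 0.37 to 0.69 on the left and at -0.31 to -1.16 on the right.

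In the heterozygous lines no such difference was called. On 1429051_s_at lines 11 and 15 gave 2148 and 1756 with GFP and 2002 and 1558 with Olig2 (-0.14 ± 0.18). Limma called 0 of 26771 probe sets there (0%), with 1008 at an unadjusted p under 0.05 and none of the 16 sets of the 4 genes among them. The test of the difference between the Olig2 effects of null and heterozygous lines gave -1.03 ± 0.23 for 1429051_s_at (adjusted p 0.16) and -1.01 ± 0.25 for 1453125_at (0.23). In that test limma called 0 of 16 sets, where 0.0523% of all probe sets were called. An unadjusted p under 0.05 was reached by 5 of the 16 and by 2805 of all 26771. Without null line 13 with GFP both were -1.11 (0.15 and 0.18), and again 0 of 16 were called. A larger difference in null lines was therefore not shown.

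With GFP, null lines had higher Sox11 than heterozygous lines on 1429051_s_at (1.09 ± 0.16, adjusted p 0.0079) and 1453125_at (1.0 ± 0.18, 0.018). These were 2 of the 3 sets called among 16, with 1.42% of all called (0.822% higher, 0.601% lower), and the other was of Mboat2. Leaving out heterozygous line 15 with GFP ended both Sox11 calls (adjusted p 0.14 and 0.19), and 1453125_at was also not called without heterozygous line 11 (0.12) or null line 14 (0.062). Without null line 13 they were 1.17 (0.012) and 1.11 (0.020), and 1431225_at (0.83, adjusted p 0.028) and 1453002_at (1.03, 0.041) were called as well. The Gapdh ratio was -0.09, 0.432 and -0.04 in these null arrays and -0.143 and -0.237 in the heterozygous arrays. The Actb ratio was 0.279 to 0.607 against 0.211 to 0.234, and median signals were 128.9 to 151.6 against 164.8 to 171.1, with no overlap in any of the 3. Oligodendrocyte lineage markers, among them Olig1 and Olig2, summed to 20871 to 26310 against 45158 to 45801. Olig1 alone read 5123.8 to 11291.1 against 24647.9 to 25682.5. Neural progenitor markers summed to 65099 to 77916 against 78237 to 83024. Microglial markers summed to 544 to 658 against 749 to 999, with 6 of 7 genes under the array's median on all arrays of each group. Immature neuron and astrocyte sums overlapped. Of these lists 1 of 7 oligodendrocyte lineage genes (Olig1, itself part of the genotype) and 1 of 12 immature neuron genes (Dpysl3) were called, both lower in null. Their part in the Sox11 and Mboat2 values was not tested. GFP virus against no virus in the same lines called 0 of 16 sets by limma, with 0.00751% of all called, and 0 of 16 without null line 13 with GFP. With all arrays, 1 of the 16 had an unadjusted p under 0.05, as did 3403 of all 26631.

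In tissue the 6 Sox11 sets parted. For 1431225_at the forebrain gave 20578 and 20004 in null and 2855 and 3831 in heterozygous embryos, and the cord gave 1494 and 1860 against 269.0 and 458.1. Null minus heterozygous was 2.61 in forebrain and 2.19 in cord. For 1436790_a_at the order was opposite, with 10153 and 11359 in null and 16841 and 14207 in heterozygous forebrain, and 3196 and 3337 against 5062 and 5622 in cord (-0.53 and -0.71). For 1453125_at the forebrain gave 10627 and 12472 against 14817 and 15415 (-0.39), and the cord differed by -0.15. Sets 1429051_s_at and 1429372_at differed by 0.16 and 0.28 in forebrain and 0.31 and 0.47 in cord, and 1453002_at by 0.16 and -0.12.

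These contrasts chose the genes, so nothing is read from calls in them, and 0.0154% of all probe sets in forebrain and 0.0809% in cord passed the threshold used elsewhere. From the highest to the lowest probe set the Sox11 differences spanned 3.14 in forebrain and 2.90 in cord. Gapdh 3' to 5' ratios were -0.224 and -0.121 in null and -0.085 and -0.066 in heterozygous forebrain, and overlapped in cord (0.294 and 0.300 against 0.037 and 0.374). The part of RNA quality in these values was not tested. Markers of the oligodendrocyte lineage, among them Olig1 and Olig2, were lower in the same null tissue. Their summed signals were 3618 to 3675 against 4750 to 5122 in forebrain and 4813 to 5356 against 14975 to 16905 in cord. The 17 immature neuron markers summed to 159957 to 162199 against 158516 to 165488 in forebrain. Meningeal markers summed to 26430 to 27359 in null and 15224 to 19831 in heterozygous cord, and microglial markers to 7333 to 7439 and 4982 to 5484. Astrocyte markers summed to 49969 to 55498 in null and 47870 to 48992 in heterozygous cord, and endothelial markers to 4139 to 4354 and 2919 to 3678. Immature neuron and neural progenitor sums overlapped in cord. Their part was not tested.

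The ratio of 1431225_at to 1436790_a_at was also taken within each array, where scaling between arrays cancels. It averaged 3.27 (wild-type), 2.97 (heterozygous) and 2.79 (null) on the log2 scale in cultures, with SDs of 0.16 to 0.37. It was 0.92 in null and -2.22 in heterozygous forebrain, and -0.96 and -3.86 in cord. The tissue ratios are built from the values that chose Sox11 and add no support to them. In cultures 0 of 11 pairs of probe sets of a gene had a ratio that differed between null and Olig-expressing arrays by the exact two-sided permutation test after adjustment (lowest adjusted p 0.20, with 2 pairs at an unadjusted p under 0.05, and the smallest p possible 0.0022). Across the 12 cultures the other 5 Sox11 sets followed 1431225_at with Pearson correlations of 0.78 to 0.92. Across all 30 arrays, which hold tissue and cultures as separate clusters, the same figures were -0.20 to 0.50.

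Between the tissues all 6 Sox11 sets were lower in spinal cord than in forebrain. For 1429051_s_at the 4 forebrain arrays ran from 12076 to 14065 and the 4 cord arrays from 1938 to 2542, a difference of -2.52 ± 0.06 (adjusted p 1.4e-09). The other sets differed by -1.53 (1453125_at) to -3.38 (1431225_at). Of the 16 sets tested of the 4 genes, 13 were called lower and 0 higher, where 37.6% of all probe sets were called and 19.1% were lower. The same 13 were called with each array left out in turn and with the embryo as a block. Cell type markers moved as well. Of 17 immature neuron genes 12 were lower and 3 higher, with summed signals of 132282 to 138158 in cord and 158516 to 165488 in forebrain. All 9 astrocyte genes were higher, with sums of 47870 to 55498 against 12298 to 13667, as were all 5 meningeal genes and the 5 tested of 7 microglial genes. Gapdh ratios were 0.037 to 0.374 in cord and -0.224 to -0.066 in forebrain. Their part in the Sox11 values was not tested.

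Heterozygous forebrain was also set against heterozygous cultures, across all 30 arrays. On 5 of the 6 sets Sox11 was higher in forebrain, from 2.00 ± 0.23 (1429372_at) to 3.93 ± 0.32 (1436790_a_at). Set 1431225_at was lower: 2855 and 3831 in forebrain against 7189, 6834 and 10134 in cultures, a difference of -1.26 ± 0.35 (adjusted p 0.0050), which without heterozygous forebrain 3 was -1.05 (0.077). Of 17 tested sets of the 4 genes 11 were called higher and 2 lower, where 43.5% of all were called (21.1% higher, 22.4% lower). Neural progenitor markers summed to 28911 to 30008 in forebrain and 74328 to 77781 in cultures. Immature neuron markers were higher for 16 of 17 genes, with sums of 158516 to 165488 against 13999 to 15425, and in the heterozygous cultures Tubb3, Snap25, Stmn2 and 5 others of the list stayed under the array's median. Their part was not tested.

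Group means of 1431225_at fell in the order null forebrain (20291 ± 406), null cultures (9346 ± 2339), heterozygous cultures (8052 ± 1812), null with GFP (7411 ± 4117), wild-type (6328 ± 594), heterozygous with GFP (5460 ± 395), null with Olig2 (5148 ± 543), heterozygous with Olig2 (4494 ± 671), heterozygous forebrain (3343 ± 690), null cord (1677 ± 259) and heterozygous cord (364 ± 134; SD). The neurosphere neighbours in this order overlapped except wild-type and heterozygous with GFP. For 1429051_s_at the order began with null forebrain (13508 ± 788) and heterozygous forebrain (12113 ± 52.6), and all later neighbours overlapped, from null with GFP (4159 ± 457) to heterozygous with Olig2 (1780 ± 315).

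Genes near SoxC in function were read from lists. Of 9 neuronal targets and partners of SoxC proteins, 5 were tested in cultures. The POU factor gene Pou3f2 was higher in null cultures (1.25 ± 0.19, adjusted p 0.00081) and lower on arrays labelled Olig2 in null lines (-1.23 ± 0.30, 0.029), 1 call of 5 in each comparison, where 6.64% and 7.66% of all probe sets were called. Without null line 13 with GFP the second difference was -1.33 (0.055) and not called. The list's medians were 0.27 and -0.36, beside -0.03 and 0.11 over all probe sets. Dcx, which encodes a microtubule protein of migrating neurons, differed by 1.2 (adjusted p 0.15) and -0.46 (0.48) and was not called. In spinal cord 6 of 7 tested were lower than in forebrain, where 19.1% of all were called lower, including Pou3f3 (-1.95), Neurod1 (-1.71), Dcx (-0.89) and Tubb3 (-0.75).

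Of 16 other Sox genes, 10 were tested in cultures and 2 were higher in null, Sox1 (1.22 ± 0.18, adjusted p 0.00063), a progenitor factor, and Sox8 (0.37 ± 0.11, 0.0497), where 3.54% of all were higher. With Olig2 in null lines 1 of 11 was called, Sox3, which was higher (0.98 ± 0.22, adjusted p 0.024) where 7.66% of all were called, and without null line 13 with GFP it was 0.75 (0.068) and not called. In the cord, where 37.6% of all were called and 19.1% were lower, 5 of 13 were lower, including Sox1 (-2.50) and Sox5 (-2.02), and 2 were higher, Sox21 (0.80) and Sox10 (0.56), a factor of the oligodendrocyte lineage; these 2 are named after their values were seen. Of 8 tested oligodendrocyte lineage genes 4 were called lower in null cultures, where 6.64% of all were called and 3.54% were higher. The sums were 19574 to 24000 against 40097 to 56024. Olig1 and Olig2, themselves part of the genotype, are in this list and in its sums. The part of these markers in the Sox11 values was not tested.

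Sox4 was read by 8 probe sets. Of these, 4 were designed on 1 sequence, and 2 further sets, 1443778_at and 1458332_x_at, on another. These 2 stayed low, at 19.2 to 191.5 and 18.1 to 231.0, while the other 6 were above the median on all 30 arrays. In cultures Sox4 did not follow the Olig genotype. Set 1433575_at gave 14615, 17488 and 10973 in wild-type, 13732, 13561 and 13199 in heterozygous and 12093 to 15164 in null cultures. The groups overlapped, with a difference of 0.01 ± 0.10 (adjusted p 0.97). The other tested sets differed by -0.25 to 0.25, and limma called 0 of 7, with 0 at an unadjusted p under 0.05. Against wild-type alone 0 were called too, but 1419156_at, read at 830.9, 2285 and 942.5 in wild-type lines 2, 3 and 20, was called when line 3 was left out (0.76, adjusted p 0.018). Null against heterozygous tissue differed by -0.18 to 0.16 in forebrain and by -0.81 (1419157_at) to -0.03 in cord.

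**Figure D3:**
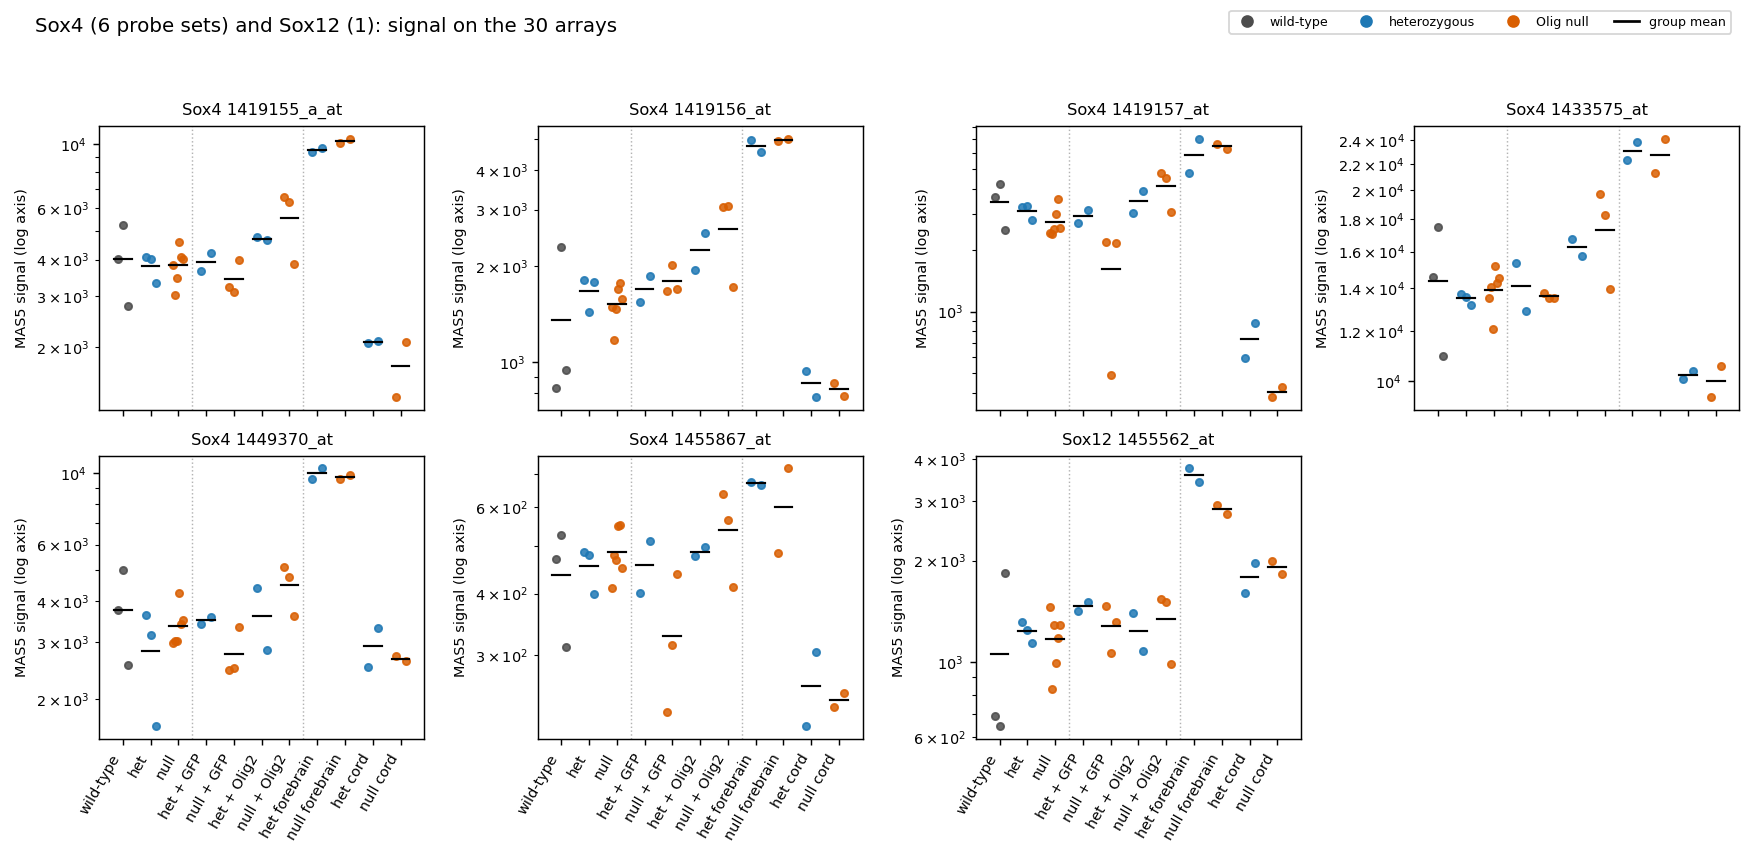
Signal of 6 Sox4 probe sets and 1 Sox12 probe set (vertical log axes, MAS5 signal) in the 11 groups; each point is an array, coloured by Olig genotype, and black lines are group means. Sox4 group means are highest in forebrain on all 6, and on 1419157_at the array of null line 13 with GFP lies at 491.7, below all other neurosphere arrays.

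On arrays labelled Olig2 in null lines, 2 of 7 tested Sox4 sets were called higher. For 1449370_at lines 12, 13 and 14 gave 2448, 2485 and 3335 with GFP and 5123, 4758 and 3600 with Olig2. The groups did not overlap, and the difference was 0.70 ± 0.19 (adjusted p 0.046). It was not called with the line as a block (0.060), and without line 13 with GFP it was 0.63 (0.12). For 1419157_at the values were 2183, 491.7 and 2160 with GFP and 4790, 4483 and 3087 with Olig2, a difference of 1.60 ± 0.44 (adjusted p 0.048). Without line 13 with GFP it was 0.89 ± 0.19 (0.029), and leaving out Olig2 line 12, 13 or 14 ended the call (0.16, 0.13 and 0.050), as did leaving out any heterozygous array of either virus (0.064 to 0.070). For 1449370_at leaving out line 12 or 13 of either virus ended it (0.098 to 0.16), as did either heterozygous GFP array (0.067 each). With the untransduced arrays of the same lines as the control neither was called (0.72, adjusted p 0.053, for 1419157_at and 0.56, 0.072, for 1449370_at). The remaining sets differed by 0.33 to 0.71 with no call, among them 1419155_a_at (0.67, adjusted p 0.051). Without line 13 with GFP the low set 1458332_x_at moved from 0.67 to -0.14 (adjusted p 0.93). In heterozygous lines the Sox4 differences ran from -0.68 to 0.39 with no call.

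The 6 Sox4 sets tested in tissue were lower in spinal cord, by -1.18 (1433575_at) to -3.45 (1419157_at). For 1433575_at the forebrain arrays gave 21299 to 24086 and the cord arrays 9444 to 10557. For 1419157_at they gave 4738 to 6994 and 382.7 to 874.9. The sizes of these falls differed between probe sets: against 1433575_at, the ratio of 1419157_at was -1.91 ± 0.24 in forebrain and -4.18 ± 0.49 in cord (SD, n = 4). The two-sided exact permutation p was 0.029, the smallest that 4 against 4 arrays allow, and 0.086 after adjustment over 12 pairs, so no pair was called. In heterozygous forebrain 4 of 7 Sox4 sets were called higher than in heterozygous cultures, from 0.77 ± 0.14 (1433575_at) to 1.90 ± 0.26 (1449370_at). Set 1419157_at was not called (0.89, adjusted p 0.061), but it was called without null line 13 with GFP (0.89, 0.0016). It was also called without null line 12 or 14 with GFP (0.043 and 0.045). The stricter filter (0.049) and quantile scaling (1.09, 0.015) gave a call too. Across groups 1433575_at was highest in heterozygous (23058 ± 1026) and null forebrain (22692 ± 1971) and lowest in heterozygous (10225 ± 191) and null cord (10000.2 ± 787; SD, n = 2 each). The 7 neurosphere groups lay between these, at means from 13497 to 17328, and each overlapped its neighbour.

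Sox12 was read by 3 probe sets, of which 1455562_at was above the median on all 30 arrays. Set 1456882_at stayed between 4.1 and 69.8 and was not tested. Set 1439754_at was low in neurospheres, at 21.6 to 202.8, and at 215.4 to 504.9 in tissue. On 1455562_at wild-type cultures gave 691.7, 644.2 and 1841, heterozygous 1315, 1240 and 1141, and null 830.1 to 1461. Wild-type line 20 lay above all other cultures, and null against Olig-expressing differed by 0.10 ± 0.22 (adjusted p 0.86). Against wild-type the difference was 0.29, and without line 20 it was 0.77 (adjusted p 0.030). With Olig2 in null lines it differed by 0.05 ± 0.20, and by -0.07 (adjusted p 0.88) without line 13 with GFP, with no call in either.

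In tissue 1455562_at gave 2929 and 2743 in null and 3753 and 3424 in heterozygous forebrain, and 1996, 1828, 1599 and 1971 in cord. It was lower in cord by -0.79 ± 0.09 (adjusted p 4.0e-05), while 1439754_at was not called (-0.25, 0.40). Both were higher in heterozygous forebrain than in heterozygous cultures, by 1.53 ± 0.29 and 2.65 ± 0.55. Null against heterozygous was -0.34 in forebrain and 0.10 in cord on 1455562_at, given as a description. The forebrain groups did not overlap.

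Mboat2 was read by 2 probe sets, both above the array's median on all 30 arrays. They parted in tissue. On 1425029_a_at null embryos gave 1411 and 1466 in forebrain and 1555 and 1471 in cord, and heterozygous embryos gave 591.1 and 578.4 in forebrain and 653.3 and 555.6 in cord. Null minus heterozygous was 1.28 and 1.31. On 1456908_at the same arrays gave 767.1 and 616.5 against 843.9 and 753.2 in forebrain and 664.3 and 652.7 against 731.9 and 733.3 in cord, differences of -0.21 and -0.15. These values are what chose the gene and carry no test.

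**Figure D4:**
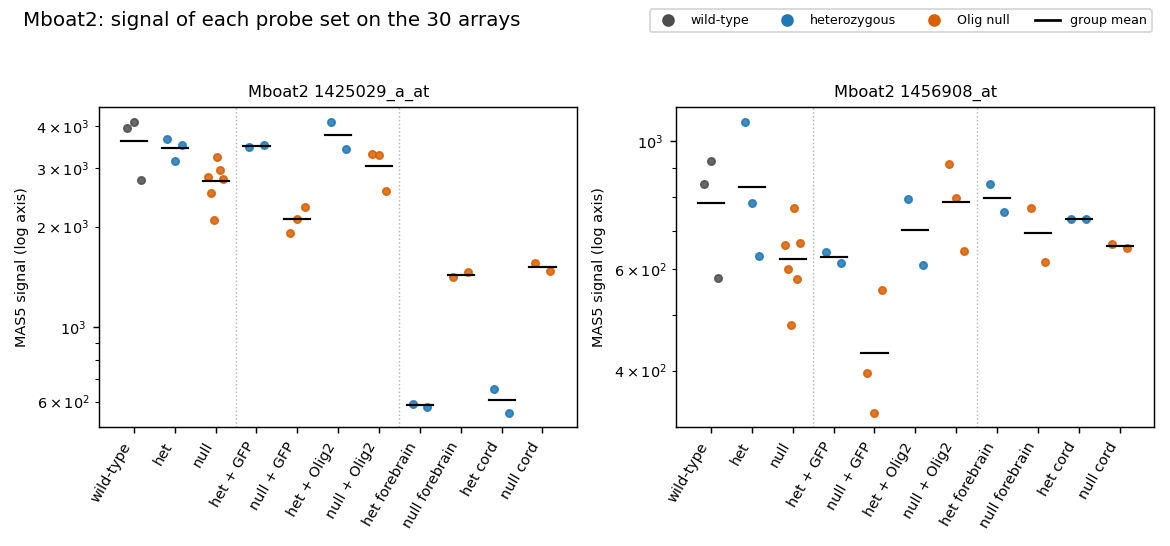
Signal of the 2 Mboat2 probe sets (vertical log axes, MAS5 signal) in the 11 groups; each point is an array, coloured by Olig genotype, and black lines are group means. On 1425029_a_at null tissue lies near 1411 to 1555 and heterozygous tissue near 555.6 to 653.3, while among neurospheres the mean of null lines with GFP is lowest on both sets.

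In neurospheres the sign was opposite to that of 1425029_a_at in tissue. On that set wild-type cultures gave 3951, 4116 and 2757, heterozygous cultures 3667, 3136 and 3506, and null cultures 2091 to 3235. Wild-type line 20 lay among the null arrays. The difference was -0.37 ± 0.12 (adjusted p 0.090), and -0.46 (0.021) without line 20. On 1456908_at it was -0.34 ± 0.16 (0.25). With GFP, heterozygous lines 11 and 15 gave 3472 and 3509 on 1425029_a_at and null lines 1912, 2113 and 2290, a difference of -0.73 ± 0.15 (adjusted p 0.040). This call ended with any of the 5 GFP arrays left out (adjusted p 0.062 to 0.27) and with 4 of the 5 Olig2 arrays left out (0.052 to 0.053).

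In null lines labelled Olig2 both sets were higher than with GFP. On 1456908_at lines 12, 13 and 14 gave 395.8, 338.2 and 551.7 with GFP and 911.9, 798.4 and 644.6 with Olig2, with no overlap and a difference of 0.86 ± 0.21 (adjusted p 0.030). On 1425029_a_at the same lines gave 3288, 3278 and 2561 with Olig2, above all 3 GFP arrays (0.52 ± 0.14, 0.040), with 0.056 when the line was a block. With untransduced arrays as the control the differences were 0.42 (0.28) and 0.30 (0.34), and without line 13 with GFP 0.71 (0.093) and 0.53 (0.083). Leaving out Olig2 line 12 or 13 or GFP line 12 ended both calls too (0.061 to 0.14), and that of 1425029_a_at ended without GFP line 14 (0.054) or either heterozygous GFP array (0.061 and 0.062). In heterozygous lines they were 0.14 and 0.10, and the test of the difference between lines was not called (adjusted p 0.48 and 0.52).

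The 2 sets also parted between tissue and culture. On 1425029_a_at heterozygous forebrain was lower than heterozygous cultures by -2.52 ± 0.16 (adjusted p 3.7e-12), with the 2 forebrain arrays at 591.1 and 578.4 and the 3 cultures at 3136 to 3667. On 1456908_at the difference was -0.03 ± 0.23 (adjusted p 0.95). Spinal cord and forebrain differed by 0.06 ± 0.10 and -0.09 ± 0.11, with no call. The signals of both sets correlated over the 12 cultures at 0.84 and over all 30 arrays, which hold separate clusters, at 0.04. On 1425029_a_at the 7 neurosphere means, 2105 ± 189 (null with GFP) to 3767 ± 485 (heterozygous with Olig2), each overlapped the next, and null cord (1513 ± 59.1), null forebrain (1438 ± 38.7), heterozygous cord (604 ± 69.1) and heterozygous forebrain (585 ± 8.98; SD, n = 2 each) followed.

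Of 21 genes of the MBOAT family and other glycerolipid acyltransferases, 18 were tested in cultures. Lpcat1 (0.50 ± 0.11, adjusted p 0.010) and Lpcat4 (1.45 ± 0.39, 0.037), which acylate lysophospholipids, were higher in null cultures, and 0 were lower, where 6.64% of all probe sets were called and 3.54% were higher. With Olig2 in null lines 1 of 18 was called, Agpat4 (-0.69 ± 0.19, adjusted p 0.048), which was lower, where 7.66% of all were called. Without null line 13 with GFP it was not called (-0.69, 0.11). In the cord, where 37.6% of all were called and 19.1% were lower, 7 of 15 were higher than in forebrain, including Mboat7 (0.40), and Agpat5 was lower (-0.53).

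Genes between and beside Mboat2 and Sox11 were read in the same tissue contrasts. The 5 tested genes between them (Kidins220, Id2, Rnf144a, Rsad2 and Cmpk2) and the 5 nearest tested genes on each side had 36 tested probe sets. None of the 36 differed by over 0.5 (log2) in the same direction in both tissues, beside 1.31% of 21586 probe sets overall. At so low a share, a count of 0 in 36 does not set these genes apart from others. Both tissues also came from the same embryos. Id2, which encodes an inhibitor of helix-loop-helix factors, differed by 0.04 to 0.21 in forebrain and -0.12 to 0.58 in cord over its 3 sets. No test is given, because the contrast chose the genes.

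**Figure D5:**
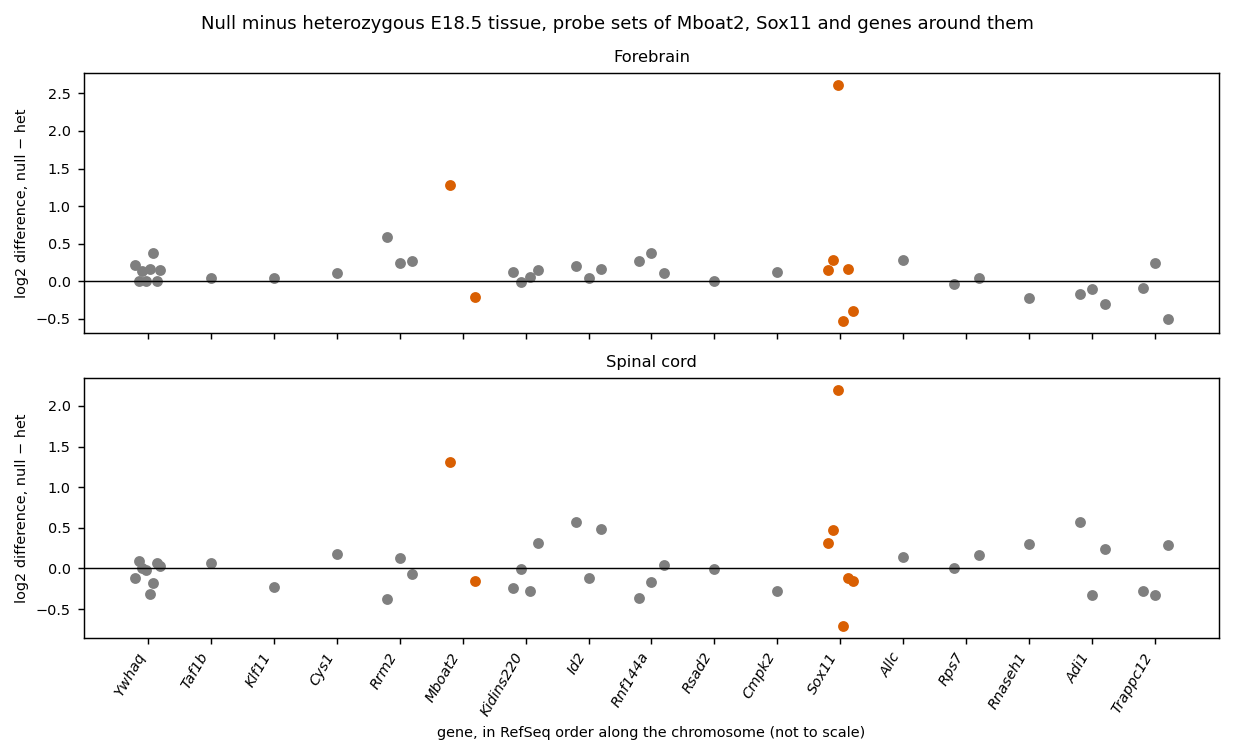
Log2 difference of null minus heterozygous tissue (vertical axis) for the probe sets of Mboat2, Sox11 (orange) and 15 tested genes around them (grey). Genes are in RefSeq order (horizontal axis, not to scale), and each point is a probe set. One Sox11 set lies at 2.61 and 2.19 and one Mboat2 set at 1.28 and 1.31, and the grey points lie between -0.50 and 0.58.

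Genes whose signals followed each gene were taken as the 3 with the highest Pearson correlation to its set of highest mean signal. Over the 22 neurosphere arrays these were Zfp704 (0.89), Hsd17b12 (0.85) and Zbtb12 (0.84) for Sox11, Polb (0.82), Slc6a17 and 4922502B01Rik (0.78 each) for Sox4, Kdelr2 (0.77), Rab2b (0.75) and Stxbp4 (0.73) for Sox12, and Nhsl1, Gpc4 (0.88 each) and Sox6 (0.87) for Mboat2. Over the 8 tissue arrays they were Flrt3, Rap1b and Tmed7 (0.98 each) for Sox11, Kidins220, Celf2 and Fezf2 (0.999, 0.998 and 0.998) for Sox4, Zbtb20 (0.99), Celf2 and Armc8 (0.98 each) for Sox12, and Atp11a (0.97), Usp37 (0.96) and Ipo9 (0.96) for Mboat2. The arrays share lines, embryos and tissues, so these figures only describe likeness.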

How the data were processed

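RNA from 30 mouse samples was hybridised to Affymetrix mouse expression arrays. The deposited values are signal intensities from MAS5, per the submitters' processing notes; its version is not stated. The mean of each array without its lowest and highest 2% was 499.8 to 499.9, a scaling to 500 by the authors. Detection calls were not used, and the number of arrays limits the precision.

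Signals were taken as log2(signal + 16). In each set of arrays a probe set entered the test if the number of arrays on which it was at or above the array median was at least the size of the smallest group, which 16 of the 19 probe sets did in the neurosphere sets and in tissue, and 17 over all 30 arrays. The main test was limma's moderated test (version 3.58.1, R 4.3.3, with a variance trend), two-sided, with Benjamini-Hochberg adjustment over all probe sets tested, and called at an adjusted p under 0.05. Ratios of probe sets were tested with an exact permutation test, written in python for these data, over all arrangements of the arrays. Rank correlations, not given here, used scipy 1.17.1. Files were read with the R package data.table (1.17.8), pandas 2.3.3 and numpy 2.4.6 under python 3.11.15, and plotted with matplotlib 3.10.9. The tests were tried on simulated data.

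The genes and lists were chosen with earlier results of these data known. Named were all probe sets of the 4 genes, Olig1 and Olig2, the 3 genes most alike each, and up to 4 genes of smallest p per list, each read from its set of highest mean. Gene names came from the platform annotation, in which 34958 probe sets had 1 symbol, 932 several and 9211 none. Probe positions and protein sequences were not used here.

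Line and embryo numbers in the labels pair arrays of the same line or embryo. The deviations of such pairs from their group means correlated at -0.103 to 0.132. The fits had no block, and a block was an alternative. Other alternatives were pseudocounts of 1 and 64, no filter and a stricter filter, quantile and 75th percentile scaling, no trend, 1 fit over all arrays, 1 probe set per gene, no _s_at and _x_at sets, untransduced arrays as the control for Olig2, and each array left out. Leaving out the array of null line 13 with GFP for the genes of the lists was chosen after seeing the data. All arrays carry the same hybridisation date in the labels.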

Additional observations from a re-analysis of the deposited data

Results flagged for a closer look

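Of 19 checks for an array far from the others of its group, 2 found one, both in null cultures and on low probe sets. Chance marks about 1 check in 20. The checks share arrays and are not independent. Sox4 1458332_x_at had a signal of 18.1 in null culture line 12, with the other 5 null cultures at 125.6 to 204.2. Sox12 1439754_at had 127.5 in null culture line 24, with the other 5 at 28.8 to 37.1.

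For 4 probe sets the null arrays lay wholly on one side of the heterozygous arrays in one kind of sample and wholly on the other side in another. The difference between the samples was not tested. The share of all probe sets that do so is not given, so the 4 cannot be set apart from others. Tissue groups hold 2 arrays each, where full separation comes easily by chance. The tissue values are also those that chose Sox11 and Mboat2. Sox11 1436790_a_at differed (null minus heterozygous, log2) by 0.38 in untransduced cultures, -0.53 in forebrain and -0.71 in spinal cord. Sox11 1453002_at differed by 0.82 in cultures with GFP, 0.16 in forebrain and -0.12 in spinal cord. Sox11 1453125_at differed by 1.0 in cultures with GFP, -0.39 in forebrain and -0.15 in spinal cord. Mboat2 1425029_a_at differed by -0.73 in cultures with GFP, 1.28 in forebrain and 1.31 in spinal cord.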

How the results depend on the processing

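The number of the 16 probe sets called, 3 between null and Olig-expressing cultures, was 1 without the trend, 6 in 1 fit over all arrays and 0 with 1 probe set per gene. Against wild-type it was 2, and 1 with no filter, without the trend or without _s_at and _x_at sets, 4 over all arrays and 0 with 1 per gene. For Olig2 in null lines it was 8, and 10 in 1 fit over all arrays, 5 with no filter, 2 without the trend or with untransduced controls, and 1 with 1 per gene. With the line as a block it was 6. Null against heterozygous with GFP gave 3, and 0 without the trend, 5 over all arrays and 1 with 1 per gene. With 1 per gene the cord comparison gave 3 in place of 13 and the forebrain comparison 4 in place of 13, since fewer sets were tested. With each array left out the counts ran from 1 to 5, 0 to 5, 2 to 10, 0 to 4, 13 to 13 and 12 to 14 in this order, and unequal ratios in cultures from 0 to 1. The comparisons with 0 calls kept 0. Apart from the 2 calls named above the block changed no call. No called difference changed sign under any alternative run.

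Counts over all probe sets left the range of 1.5 times in several settings. They were 1702 between null and Olig-expressing cultures (1001 to 2138 over all alternatives), 1404 against wild-type (738 to 1837), 693 against heterozygous (342 to 975), 2 between heterozygous and wild-type (0 to 14), 2050 for Olig2 in null lines (612 to 3652), 0 in heterozygous lines (0 to 1), 14 for their difference (0 to 77), 381 with GFP (38 to 873), 2 for GFP virus (0 to 29), 9770 in cord (4940 to 9886) and 13625 in forebrain against cultures (6893 to 14008). Causes were not tested.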
